A study of Mus musculus with 3 samples.

Results

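The acute phase genes described here are 8 transcripts, Saa3, Serpina3n, Lcn2, Hp, Cp, Il6, Lbp and Socs3, out of 19938 genes measured in sorted mouse pancreatic cells. Each was read from the probe set that the platform annotation assigns to that gene alone, and Socs3, which has 2 such probe sets, from the one with the higher mean. The genes were selected on their log2 levels in these same 3 arrays, which were known when the list was made, so every value below is a description and none is a test.

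The study asked how loss of Fbw7, a ubiquitin ligase subunit encoded by Fbxw7, alters pancreatic duct cells, and used beta cells as an endocrine reference. It holds 3 arrays, each of 1 pool of 30000 sorted cells from adult C57BL/6 mice older than 6 weeks. Beta cells came from 3 untreated Fbw7 +/+; MIP-GFP mice, in which the insulin promoter drives the green reporter. Ductal cells came from mice that all carried Ck19-CreERT and R26-LSL-YFP, 6 with Fbw7 +/+ (wild-type) and 6 with Fbw7 F/F (deleted). All of these ductal mice were given tamoxifen on 5 days, and cells were taken 7 days later. The cytokeratin 19 promoter drives the Cre in any cell in which it is active, and the yellow reporter marks such cells. Beta and ductal cells therefore differ in cell type, reporter and tamoxifen at once, and these cannot be told apart. With 1 array per group no difference has a replicate check, no p-value can be given, and the number of arrays limits the precision.

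The acute phase response is a change in secreted proteins that follows infection or injury. Interleukin 6 binds its receptor and the shared signalling chain gp130, Jak kinases then activate the transcription factor Stat3, and Stat3 acts together with NF-kB and C/EBP factors on acute phase genes. The liver is the best known source of these proteins, but epithelial and mesothelial linings and fibroblasts make several of them locally. Among the 8 genes, Il6 encodes the inducing cytokine and Socs3 an inhibitor that Stat3 induces and that blocks the receptor. Saa3 encodes a serum amyloid A, Serpina3n a serine protease inhibitor, Lcn2 a lipocalin that captures bacterial siderophores, Hp the haemoglobin-binding haptoglobin, Cp the copper-carrying ferroxidase ceruloplasmin, and Lbp the protein that hands lipopolysaccharide to Cd14.

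The DNA just before the transcript start is shown for 4 members, because all of them read higher in the ductal arrays than in beta cells and because each of the 3 motifs searched is found among them. The sequences come from RefSeq on GRCm38.p6, give the 250 bases before the start in the direction of transcription, and carry motif matches in capitals. The windows lie at chr7:46715677-46715926 on the minus strand (Saa3), chr12:104406458-104406707 on the plus strand (Serpina3n), chr5:30012864-30013113 on the plus strand (Il6) and chr11:117969367-117969616 on the minus strand (Socs3).
Saa3: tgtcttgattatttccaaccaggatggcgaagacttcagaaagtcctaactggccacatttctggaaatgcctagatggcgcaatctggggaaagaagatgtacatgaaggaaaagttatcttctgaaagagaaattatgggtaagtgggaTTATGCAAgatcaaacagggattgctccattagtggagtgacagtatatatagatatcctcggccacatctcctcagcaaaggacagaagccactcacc
Serpina3n: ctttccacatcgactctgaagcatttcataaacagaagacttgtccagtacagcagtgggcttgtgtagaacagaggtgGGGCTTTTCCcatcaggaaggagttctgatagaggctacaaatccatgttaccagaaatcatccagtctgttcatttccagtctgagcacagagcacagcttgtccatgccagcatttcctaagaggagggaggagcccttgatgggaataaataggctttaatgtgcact
Il6: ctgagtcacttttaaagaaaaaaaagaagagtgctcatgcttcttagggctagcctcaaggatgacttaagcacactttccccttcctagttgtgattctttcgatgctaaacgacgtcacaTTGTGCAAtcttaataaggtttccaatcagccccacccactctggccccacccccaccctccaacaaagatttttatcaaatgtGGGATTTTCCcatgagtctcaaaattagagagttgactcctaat
Socs3: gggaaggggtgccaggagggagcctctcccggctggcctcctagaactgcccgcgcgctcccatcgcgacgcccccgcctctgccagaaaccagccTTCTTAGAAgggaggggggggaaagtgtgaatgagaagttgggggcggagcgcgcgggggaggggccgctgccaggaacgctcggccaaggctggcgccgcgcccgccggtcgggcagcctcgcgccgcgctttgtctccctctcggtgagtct

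The motifs were a STAT motif (TTCNNNGAA), an NF-kB motif (GGG, any 3 bases, then TTCC) and a C/EBP motif (TTGCNNAA), each sought on both strands, with N for any base. RefSeq starts were matched for 6 of the 8 members, and Hp and Lbp were not matched. In the printed sequences the capitals in Saa3 are a C/EBP match, those in Serpina3n an NF-kB match and those in Socs3 a STAT match, while Il6 carries a C/EBP match followed by an NF-kB match. Lcn2 and the second of the 2 Cp starts each held a C/EBP match too. The 6 members have 7 windows, and the first Cp start held no match. Thus 4 of 7 windows had a C/EBP match, 2 of 7 an NF-kB match and 1 of 7 a STAT match. Over 32851 windows of the same length, the shares were 9.56% for C/EBP, 4.65% for NF-kB and 7.02% for STAT. No match overlapped a match of another motif. A match is a run of letters and not a measured binding site.

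**Figure D1:**
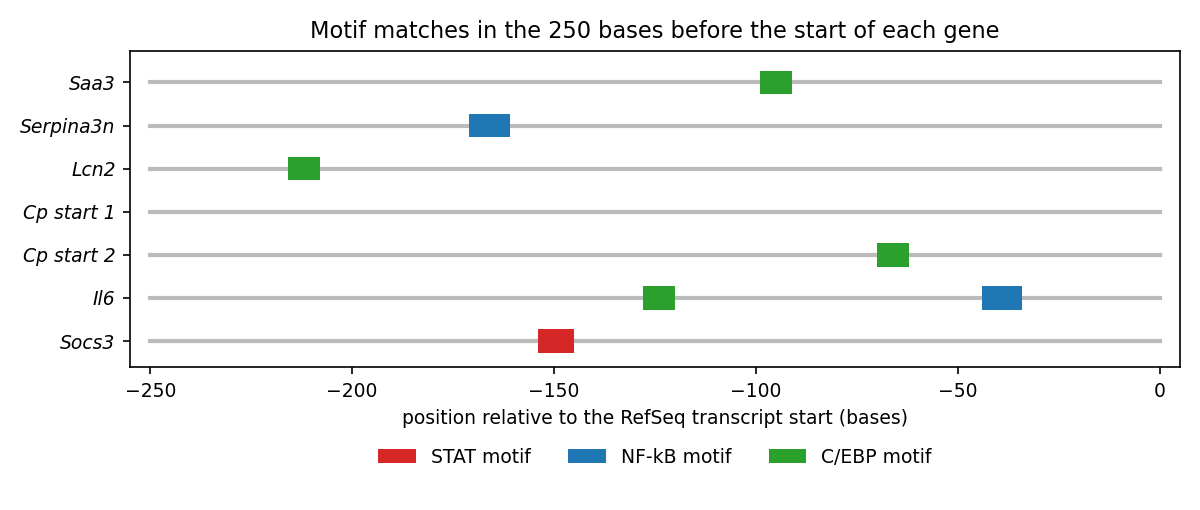
Positions of motif matches in the 250 bases before the RefSeq transcript start; the x axis is distance from the start in bases, each grey line is 1 window, and coloured blocks are matches. C/EBP matches lie in windows of 4 genes, NF-kB matches in Serpina3n and Il6, and the STAT match in Socs3.

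Levels are log2 intensities as deposited. A gene entered a comparison of 2 arrays when the higher of its values lay above that array's floor, the median of probe sets with 1 gene, which was 5.30 for beta cells and, for ductal cells, 5.23 (wild-type) and 5.24 (deleted). Where the lower of the levels compared lay below the floor of its array, that floor replaced it, and the resulting minimum fold is marked "at least". Counts of genes 2-fold or more apart use levels as measured unless stated. All 8 members lay above the floor in both ductal arrays, and 3 of them, Lcn2, Lbp and Socs3, also in beta cells. Of 35556 probe sets, 47.2% were identical between the ductal arrays. The targeted gene, Fbxw7, had 1 probe set at 4.95 in all 3 arrays and another at 7.00 (beta), 6.32 (wild-type ductal) and 5.71 (deleted ductal). Whether these probes lie in the floxed part is unknown here, so they do not check the deletion.

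All 8 acute phase genes read higher in wild-type ductal cells than in beta cells, and each was 2-fold or more higher, where 25.8% of all genes compared were. Saa3 was at least 89.7-fold higher, the largest difference of the 11139 genes compared both as measured and against the floor, and Serpina3n at least 38.9-fold higher. The smallest difference was that of Socs3, 2.30-fold. In deleted ductal cells 7 of the 8 were at least 2-fold above beta cells, where 23.0% of all genes were. Between the ductal arrays 6 members read lower in deleted cells, Cp read higher and Il6 was identical, and Hp alone was 2-fold apart, where 1.81% of all genes were at least 2-fold lower.

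**Figure D2:**
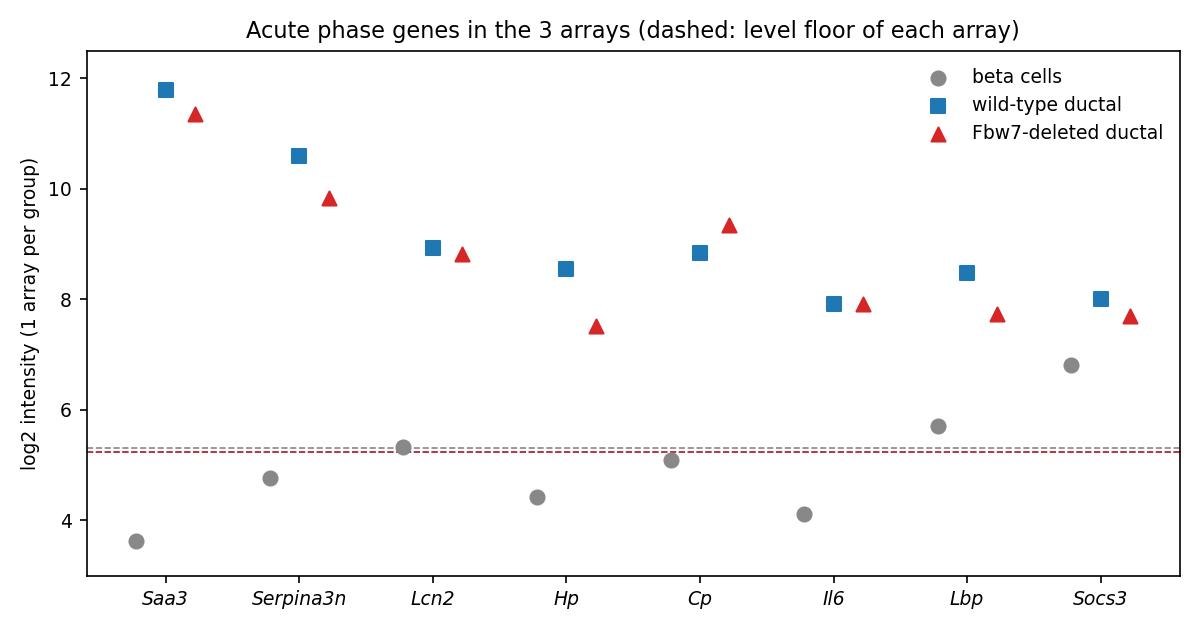
Log2 intensity of the 8 acute phase genes in the 3 arrays, 1 point per array; dashed lines are the floors of 5.30, 5.23 and 5.24. Ductal points of every gene lie above the beta cell point, with the widest gap for Saa3 and the narrowest for Socs3; heights of different genes are not comparable, because probes differ in response.

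Saa3, the serum amyloid A made outside the liver, read 3.63 in beta cells against 11.79 (wild-type) and 11.36 (deleted) in ductal cells. The ductal arrays were high and the beta cell array low. As deposited, the difference of wild-type ductal from beta cells was 8.16, and against the floor 6.49. Deleted ductal cells were at least 66.6-fold above beta cells, again the largest of 11095 differences both as measured and against the floor. Other serum amyloid genes did not share this pattern: Saa1 read 3.12 in beta cells and 2.69 in both ductal arrays, Saa2 at most 4.77, and Saa4 3.20 in all 3 arrays. All of those levels lay below the floor.

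Serpina3n, a member of the antichymotrypsin-like serpins, read 4.77 in beta cells against 10.59 (wild-type) and 9.84 (deleted) in ductal cells. It lay below the floor in beta cells only, and wild-type ductal cells differed from them by 5.82 as measured and 5.28 against the floor, rank 10 and rank 7 of 11139. Deleted ductal cells were at least 23.2-fold above beta cells. Of its close relatives, Serpina3a and Serpina3b had probe sets of their own, and none of their levels passed 4.37. Mouse Serpina3 genes form a cluster of similar copies, and whether transcripts of other copies add to the Serpina3n signal cannot be read from these values.

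Lcn2, Cp and Hp bind iron carriers, copper and haemoglobin. Lcn2 read 5.33 in beta cells against 8.94 (wild-type) and 8.83 (deleted) in ductal cells, so that it was 12.2-fold and 11.3-fold higher in the ductal arrays. Cp read 5.09 in beta cells against 8.83 (wild-type) and 9.34 (deleted) in ductal cells, at least 11.5-fold and 16.4-fold higher. Cp was thus the member whose deleted ductal level exceeded the wild-type one. Hp read 4.43 in beta cells against 8.55 (wild-type) and 7.52 (deleted) in ductal cells, at least 9.46-fold and 4.64-fold higher than in beta cells. Hp had the widest gap between the ductal arrays of the 8 genes.

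Of the proteins known to take up or work beside these carriers, the endocytic receptor Lrp2, which takes up lipocalin, was at least 9.44-fold higher in wild-type ductal than in beta cells. It read 4.66 in beta cells against 8.54 (wild-type) and 9.05 (deleted) in ductal cells. Slc22a17, another known lipocalin receptor, named here for that role, read 5.90 in all 3 arrays. Among 15 iron handling genes, 10 entered the comparison of wild-type ductal with beta cells, and 5 were 2-fold or more higher (25.8% of all genes) and 0 were 2-fold lower (6.37%). With levels raised to the floor 4 were 2-fold higher and the median was 0.79, since Tfrc was at 1.21 as measured and 0.35 against the floor. With the loess trend removed 4 were 2-fold higher and 1 was 2-fold lower, where 25.0% of all genes were 2-fold apart. The lower one was Ftl1, named after its value was seen, at 0.39 as deposited and -1.24 with the trend removed. The iron carrier transferrin, Trf, was 20.5-fold higher, and it read 5.60 in beta cells against 9.96 (wild-type) and 9.07 (deleted) in ductal cells. The transferrin receptor Tfrc differed by 0.03 between the ductal arrays, the haem oxygenase Hmox1 by -0.75 and Trf by -0.89. The median over those 10 genes was 1.07 against beta cells and -0.12 between the ductal arrays. In the latter comparison 0 of them were 2-fold apart, where 3.25% of all genes were.

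Lbp read 5.71 in beta cells against 8.48 (wild-type) and 7.74 (deleted) in ductal cells. It lay above the floor in all 3 arrays and was 6.82-fold higher in wild-type and 4.09-fold higher in deleted ductal cells. The genes that act with it in sensing lipopolysaccharide read higher in ductal cells as well. Cd14, the membrane protein to which Lbp passes lipopolysaccharide, was 15.7-fold higher in wild-type ductal than in beta cells, with 5.79 in beta cells against 9.76 (wild-type) and 9.60 (deleted) in ductal cells. The signalling receptor Tlr4 read 5.24, 7.54 and 7.08 and its partner Ly96 4.58, 6.24 and 6.87, in the order beta, wild-type and deleted ductal cells. Bpi, the neighbouring relative of Lbp, read 4.46 at most and lay below the floor in every array. Of 9 receptor and partner genes that entered, 6 were at least 2-fold higher in wild-type ductal cells as measured (25.8% of all genes), 0 were lower, and the median was 2.10. With levels raised to the floor 5 were, as Ly96 was then at 0.93. The endocytic receptor Lrp1 read 7.11 in beta cells against 9.21 (wild-type) and 8.58 (deleted) in ductal cells and was the lowest of the 9 between the ductal arrays, at -0.63.

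Il6 read 4.12 in beta cells and 7.91 in each ductal array, at least 6.11-fold higher in both. Its ductal values were identical to the last digit, as were those of 48.2% of the genes compared between the ductal arrays. Other cytokines of the family were closer to the beta cell level. Cardiotrophin 1 (Ctf1), a gp130 ligand, read 5.26, 6.70 and 7.18 in beta, wild-type and deleted ductal cells, while Clcf1 differed by 0.36 and Lif by 0.18 between wild-type ductal and beta cells. The 6 ligands that entered include the member Il6. Of them 2, Il6 itself and Ctf1, were at least 2-fold higher in wild-type ductal cells (25.8% of all genes). Il11 alone was at least 2-fold lower as measured (6.37% of all genes), with 5.31 in beta cells against 3.94. Against the floor the difference of Il11 was -0.07.

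The receptor genes for these cytokines differed in pattern. Il6ra, the binding chain for interleukin 6, named here for its role, read 5.98 in all 3 arrays. The shared chain gp130, encoded by Il6st and named for its role, was 11.8-fold higher in wild-type ductal than in beta cells. It read 6.79 in beta cells against 10.35 (wild-type) and 10.22 (deleted) in ductal cells. Osmr, the oncostatin M receptor chain, was at least 11.6-fold higher and read 5.07, 8.84 and 8.51 in the same order. Stat3, also named for its role, read 6.47, 9.16 and 8.68. Of 12 receptor, Jak and Stat genes, 6 were at least 2-fold higher in wild-type ductal cells (25.8% of all genes), 0 were at least 2-fold lower (6.37% of all genes) and 4 were identical. Their median was 0.51 as deposited and -0.04 after quantile normalization. Between the ductal arrays 1 was at least 2-fold higher in deleted cells and 1 at least 2-fold lower, beside 1.43% and 1.81% of all genes. The higher one was Lifr, the leukaemia inhibitory factor receptor chain, 3.41-fold, with 6.29 in beta cells against 5.56 (wild-type) and 7.33 (deleted) in ductal cells. The lower one was Il22ra1, a chain of the interleukin 22 receptor, 2.04-fold, with 5.21 in beta cells against 8.38 (wild-type) and 7.36 (deleted) in ductal cells. The kinase Jak2 read 4.79 in beta cells against 8.39 (wild-type) and 7.44 (deleted) in ductal cells, a difference of -0.95 between the latter.

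Socs3 was read by both of its probe sets. On the probe set with the higher mean it read 6.81 in beta cells against 8.01 (wild-type) and 7.69 (deleted) in ductal cells, 2.30-fold and 1.84-fold higher than in beta cells. On the other it read 6.09 in beta cells and 7.68 in both ductal arrays, a difference of 1.59. The order of beta below ductal cells held on each, but the size depended on scaling: the difference of wild-type ductal from beta cells on the first probe set was 0.27 after quantile normalization and 0.14 with the loess trend removed. Of its relatives, Socs2 was identical in the ductal arrays (6.79) and at least 2.81-fold above beta cells, Socs1 read 6.41 in beta cells against 5.84 in both ductal arrays, and Cish read 5.99 in all 3. The 12 Socs family and other Stat inhibitor genes include the member Socs3. Of them 3, Socs3 included, were at least 2-fold higher in wild-type ductal cells (25.8% of all genes) and 0 at least 2-fold lower (6.37%). Their median was 0.40 as deposited and -0.05 after quantile normalization. Between the ductal arrays 6 of the 12 were lower in deleted cells (35.4% of all genes) and 6 identical (48.2%), with the phosphatase Ptpn2 lowest at -0.59.

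Over the whole group, the difference of wild-type ductal from beta cells had a median of 3.77 over 8 genes (3.39 against the floor), beside a median of 0.11 over all 11139 genes compared. All 8 were at least 2-fold higher in wild-type ductal cells, where 25.8% of all genes compared were. For deleted ductal against beta cells the median was 3.65 (3.05 against the floor) beside 0.05 over all genes, and 7 of 8 were at least 2-fold higher where 23.0% of all genes were. These comparisons share the beta cell array, and the members were picked knowing these values, so nothing is read from the counts. None was at least 2-fold lower in wild-type ductal cells, where 6.37% of all genes were. The split of all genes moved with scaling: of genes at least 2-fold apart between wild-type ductal and beta cells, 80.2% were higher in ductal cells as deposited, 62.8% after quantile normalization and 65.0% with the loess trend removed. The median over all genes shifted by -0.19 with quantile normalization, -0.14 with the loess trend and 0.20 with centring, so values for members hold relative to such a shift. The member median stayed between 3.29 and 3.98 under these scalings.

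**Figure D3:**
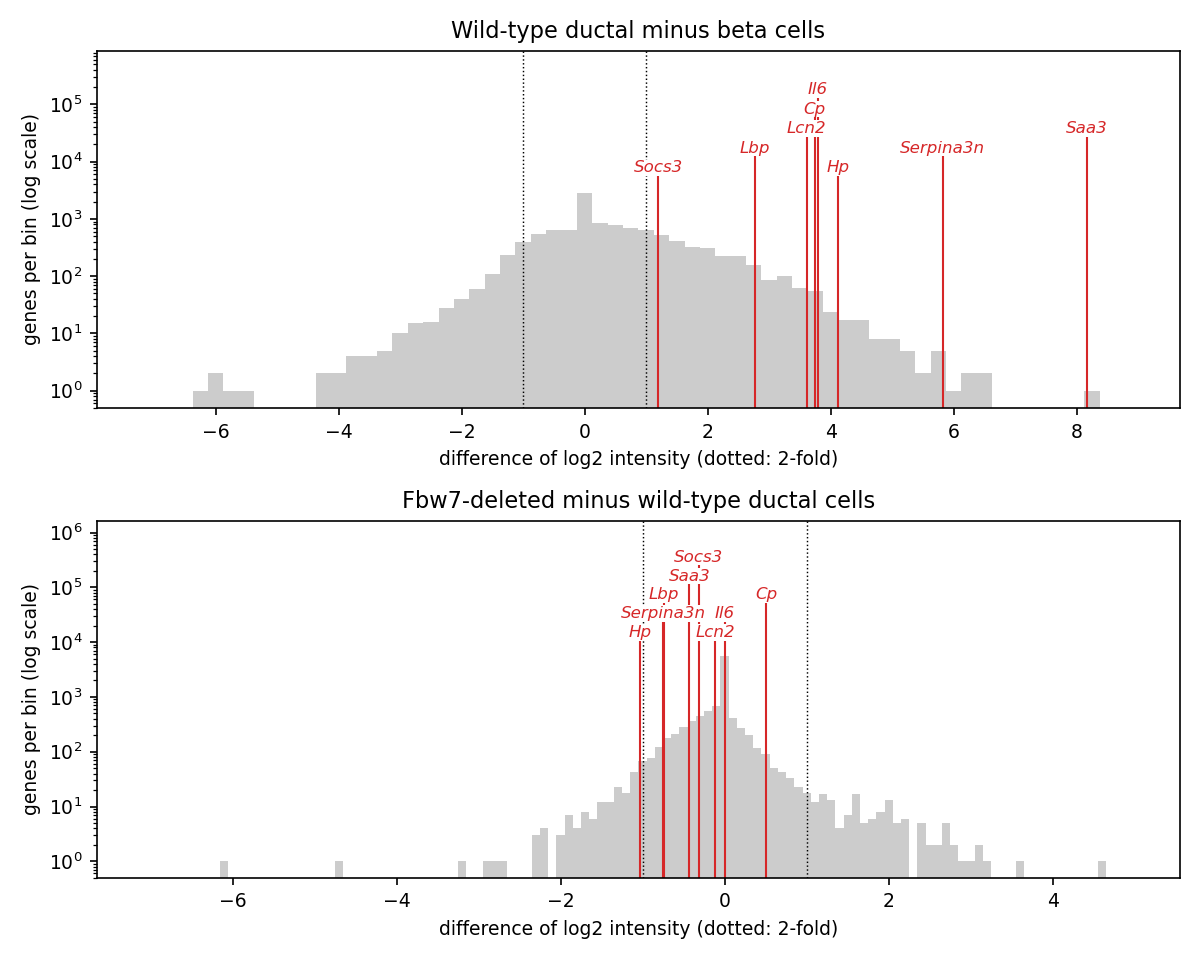
Differences of log2 intensity for all genes compared (grey bars, log-scaled count) with the 8 members as red lines: wild-type ductal minus beta cells above, deleted minus wild-type ductal cells below; dotted lines mark 2-fold. All members lie right of the 2-fold line above, up to 8.16 for Saa3, while below they lie between -1.03 and 0.51.

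The ductal arrays differ by design in Fbw7 genotype, and each is 1 pool from different mice. Whether loss of Fbw7 gave rise to the differences that follow was not tested. Hp, at 7.52 against 8.55, was 2.04-fold lower in deleted cells, rank 165 from the most negative among 10035 genes as measured. Its difference of -1.03 became -0.78 after quantile normalization and -0.95 with the loess trend removed, short of 2-fold. Serpina3n was 1.68-fold and Lbp 1.67-fold lower, at differences of -0.75 and -0.74. Saa3 was at -0.43, Socs3 at -0.32, Lcn2 at -0.11 and Il6 at 0. Cp, at 0.51, was 1.42-fold higher, rank 341 from the most positive as measured. The sign of Lcn2 turned with quantile normalization, to 0.01, and Il6 moved between -0.03 and 0.15 with scaling.

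Of the 8 members, 1 was at least 2-fold lower, where 1.81% of all genes compared were, and 0 were at least 2-fold higher, where 1.43% were. By any amount 6 of 8 were lower, where 35.4% of all genes were, and 1 was higher, where 16.4% were. The remaining member was identical, where 48.2% of all genes were. Both shares of all genes are held down by these ties, so no direction is read from the counts. The median over the members was -0.37, beside 0 over all genes, and it lay between -0.41 and -0.25 under quantile normalization, centring and the loess trend. As deposited, 44.2% of genes at least 2-fold apart were higher in deleted cells, and 60.1% after quantile normalization. No spread between pools of 1 genotype is known, so whether gaps of this size exceed it cannot be said.

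Further positive acute phase genes were counted from a list of 30, of which 27 were measured and 9 entered the comparison of wild-type ductal with beta cells. Of these 9, 7 were 2-fold or more higher in ductal cells (25.8% of all genes) and 0 were 2-fold lower (6.37%), with a median of 3.33. That median moved with scaling, to 3.54 with centring, 2.40 after quantile normalization and 1.75 with the loess trend removed. With the loess trend removed the receptor and partner genes had a median of 1.78. The chitinase-like Chil1 was at least 45.6-fold higher, the complement factor Cfb, named after its value was seen, 40.4-fold and the metalloreductase Steap4 19.0-fold. The haem carrier Hpx (the same level in each array), the acid glycoprotein Orm1 (4.61 at most) and the fibrinogen chain Fgg (3.22 at most) were below the floor in every array, while the inhibitor chain Itih4 was above it in each, at 5.83, 5.35 and 5.60 in beta, wild-type and deleted ductal cells; these 4 were named after their values were seen. Crp, the C-reactive protein gene, read 6.02 in deleted ductal cells against 4.85, below the floor, in each of the other arrays. It was at least 1.72-fold higher than in wild-type ductal cells and at least 1.64-fold higher than in beta cells.

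Of 10 such genes that entered between the ductal arrays, 6 were higher, 3 lower and 1 identical in deleted cells, with a median of 0.15; of all genes 16.4% were higher, 35.4% lower and 48.2% identical. The metallothionein Mt2 was at 0.56, Steap4 at -0.80 and the zinc importer Slc39a14, which interleukin 6 induces in liver, at -0.67. Of 13 Stat3-induced genes, 8 were lower and 3 higher with a median of -0.14, and 2 exceeded 2-fold in each direction (higher, 1.43% of all genes; lower, 1.81%); the inhibitor Timp1 was at -1.04 and the cytokine receptor Il4ra at -1.14. The antimicrobial lectins Reg3b, at 4.61, and Reg3g, at 1.99 (0.44 against the floor), went the other way. Of the 13, 2 were identical, where 48.2% of all genes were. The 35.4% of all genes that were lower is held down by these ties, so no direction is read from the 8 lower genes.

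Another list held genes known to fall in the liver during an acute phase response. Of 7 that entered the comparison of wild-type ductal with beta cells, 1 was at least 2-fold higher (Trf; 25.8% of all genes) and 2 at least 2-fold lower (6.37%), with a median of -0.30. The lower ones were Ttr and F12, and F12, named after its value was seen, was at -1.20 as measured and -0.71 against the floor. The thyroxine carrier transthyretin, Ttr, read 9.24 in beta cells against 7.35 (wild-type) and 9.44 (deleted) in ductal cells. The albumin gene Alb read 4.64, 5.34 and 6.17 in the same order, near or below the floor in beta and wild-type ductal cells. The retinol carrier Rbp4 read 5.64 in deleted ductal cells and 5.96 in the other arrays.

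The NF-kB and C/EBP genes and the cytokines that act through them were split. Of 22 that entered, 8 were at least 2-fold higher in wild-type ductal than in beta cells and 2 at least 2-fold lower (25.8% and 6.37% of all genes), with a median of 0.64. The NF-kB partner Bcl3 was 10.6-fold higher and the inhibitor Nfkbia, named for its role, 6.42-fold. The cytokines Il1b, named after its value was seen, and Tnf were the 2 lower genes, at least 5.13-fold and 3.00-fold, with 7.59 and 6.82 in beta cells. Cebpb, named for its role, was at 0.64 as deposited and -0.21 after quantile normalization. Between the ductal arrays 1 of 20 was 2-fold apart, where 3.25% of all genes compared were. It was the inhibitor Nfkbie, 2.48-fold lower in deleted cells. The NF-kB inhibitor Tnfaip3 was at -0.55 and the median was -0.06.

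**Figure D4:**
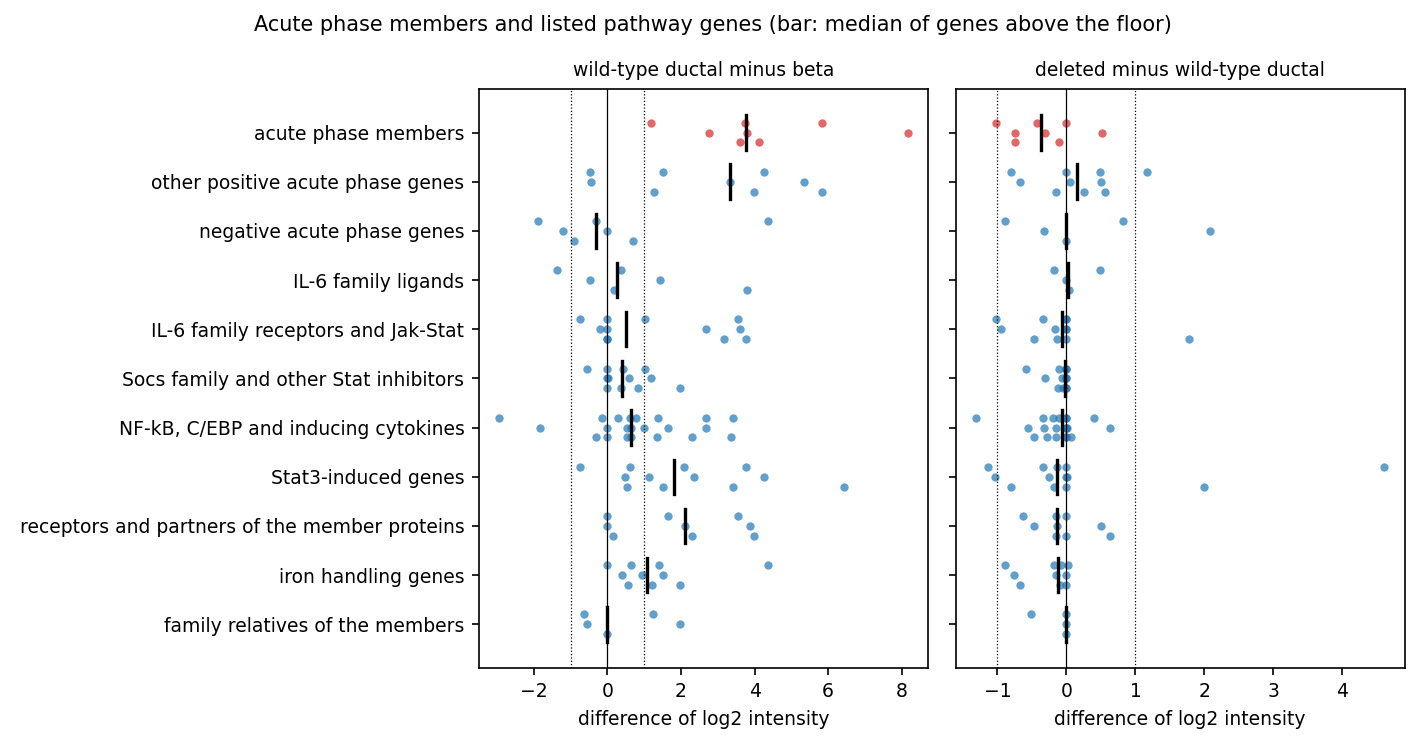
Differences of log2 intensity for the members (red) and for genes of 10 pathway lists (blue), 1 point per gene above the floor, with the list median as a black bar; left, wild-type ductal minus beta cells, right, deleted minus wild-type ductal cells. Values are as deposited, and Il6 and Socs3 are also points of the ligand and Socs lists. The lists share further genes, among them Steap4, Cd14, Bcl3, Osmr and Il6st, so their medians do not come from separate sets. Member and further acute phase medians (3.77 and 3.33) lie right of the other lists on the left. All list medians lie near 0 on the right, between -0.37 and 0.15.

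Markers of several cell types moved with the difference between ductal and beta cells. Mesothelial markers, of which 15 of 16 were measured, were all above the floor in both ductal arrays, where 9 were in beta cells. Their level, summed on the linear scale, was log2 14.1 in wild-type, 14.1 in deleted ductal cells and 10.7 in beta cells. The marker lists overlap, with Dcn counted as mesothelial and mesenchymal and Krt19 as mesothelial and duct. Msln read 10.61 and 10.73 in wild-type and deleted ductal cells and 5.53 in beta cells. Markers of duct cells summed to 11.9, 12.9 and 10.6 in wild-type ductal, deleted ductal and beta cells, with the chloride channel Cftr below the floor in all 3 arrays. Mesenchymal markers summed to 13.6, 12.9 and 11.2 in the same order. The duct list was split between wild-type ductal and beta cells. Of 16 that entered, 7 were at least 2-fold higher (25.8% of all genes), with a median of 0.54. By any amount 10 were higher, 5 lower and 1 identical. Cdh1, named after its value was seen, read 6.92 in beta cells against 6.54 (wild-type) and 9.17 (deleted) in ductal cells. In deleted ductal cells 15 of 17 were at least 2-fold above beta cells (23.0% of all genes). In bulk samples a change in the share of a cell type and a change in its RNA cannot be told apart, and the part of these cell types in the acute phase differences was not tested.

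Most leukocyte and liver markers did not go with the members. Of 15 leukocyte markers 4 lay above the floor in each ductal array against 11 in beta cells. The leukocyte antigen Ptprc and the lysozyme Lyz2 read 3.72 and 3.02 in wild-type ductal cells, below the floor, against 5.88 and 6.73 in beta cells. Of 11 measured liver markers 4 were above the floor in each array, and the fibrinogen chains Fga and Fgb were below it in all 3. Acinar markers summed to 15.5 in beta cells against 13.6 (wild-type) and 15.0 (deleted) in ductal cells. Of 11 measured beta cell markers 7 lay above the floor in beta cells and 3 in each ductal array. They summed to 11.8 in beta cells against 8.20 (wild-type) and 8.66 (deleted) in ductal cells. The beta cell array thus also carried acinar and leukocyte marker signal, and its part in the differences from beta cells was not tested. Between the ductal arrays the mesothelial list had a median of 0.01 over 15 genes, the duct list 1.01 over 16 and the acinar list 1.77 over 12. The mesenchymal list was at -0.67 over 13 genes, 12 of them lower in deleted cells, where 35.4% of all genes were lower and 48.2% identical. Its part in the lower readings of Hp, Serpina3n and Lbp was not tested.

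**Figure D5:**
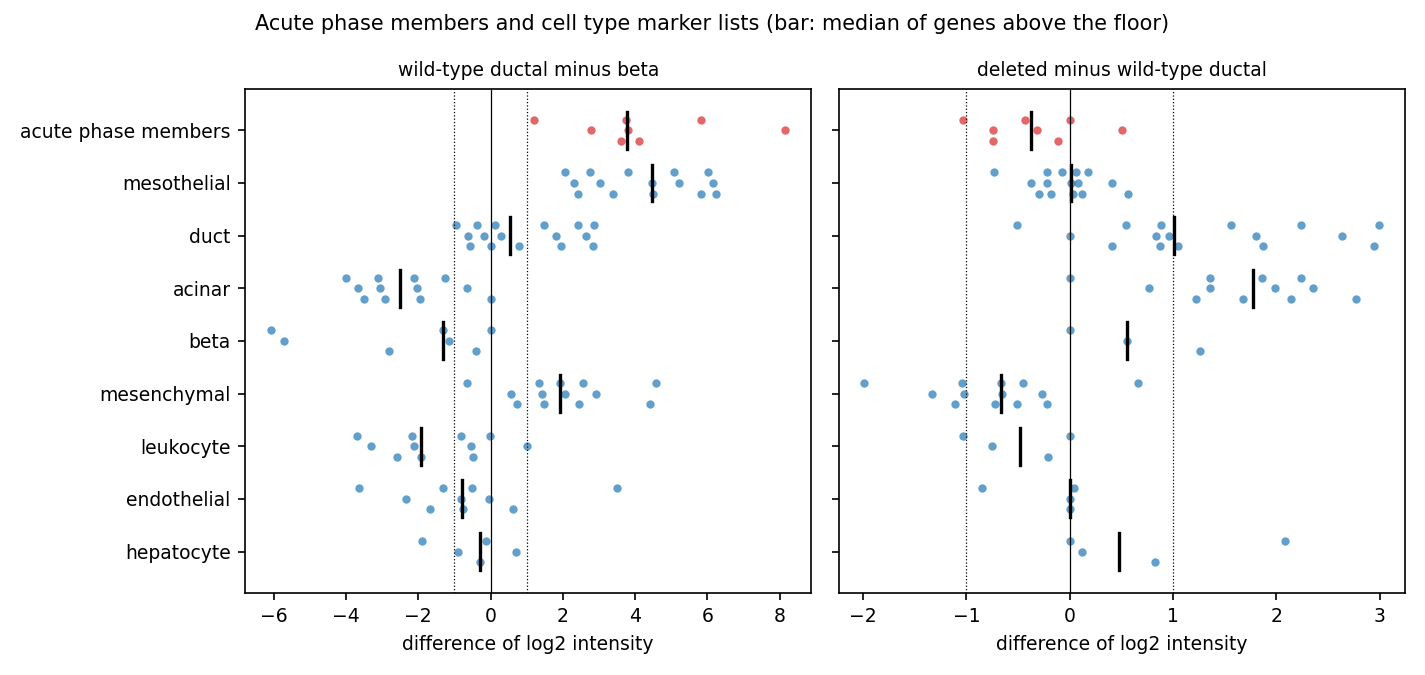
Differences of log2 intensity for the members (red) and for 8 cell type marker lists (blue), 1 point per gene above the floor, with medians as black bars; left, wild-type ductal minus beta cells, right, deleted minus wild-type ductal cells. On the left the mesothelial median of 4.46 lies beside the member median of 3.77, while on the right the mesenchymal median (-0.67) is on the side of the members and the duct and acinar medians (1.01 and 1.77) are on the other.

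The genes most like each member were those with the smallest Euclidean distance over 2 differences, wild-type ductal minus beta and deleted minus wild-type ductal, among 11303 genes above the floor in at least 1 array. With 3 arrays this likeness is a coarse description. Distances use levels as measured, and the beta cell levels of Saa3, Timp1, Muc16 and Lrrn4 lay below the floor. Nearest to Saa3 were Timp1 (distance 1.83), the mucin Muc16 (1.98) and Lrrn4 (2.01), the latter pair being mesothelial markers. Serpina3n was nearest to Lrrn4 (0.49), Heg1 (0.58) and Gpm6a (0.60). Lcn2 was nearest to Elovl5 (0.03), Il6st (0.06) and Snu13 (0.06), and Cp to Scd2 (0.13), the lipocalin receptor Lrp2 (0.14) and Serpinb6b (0.18). Hp was nearest to the interferon receptor chain Ifnar2 (0.02), Lbp to Cdc27 (0.02), Il6 to Crip1 (0.06) and Socs3 to Uqcc3 (0.02). With levels raised to the floor, an alternative chosen after seeing the data, Timp1 was again nearest to Saa3 (0.84), Heg1 was nearest to Serpina3n (0.34) and Cdc27 to Lbp (0.02), and the 3 genes nearest to Lcn2 were the same. The nearest gene was then Crtap for Hp (0.07), Hpgd for Cp (0.01), Ctnnb1 for Il6 (0.0032) and Heatr5a for Socs3 (0.03).

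Genes that flank the members on the chromosome mostly did not share their pattern. Counting the 2 protein-coding RefSeq genes on each side, 30 neighbours had a probe set of their own and 18 of these were above the floor in some array. Of the 18, 2 were at least 2-fold higher in wild-type ductal than in beta cells, where 25.8% of all genes compared were, and 1 was at least 2-fold lower, where 6.37% were. The higher pair were Ralgapb beside Lbp (5.46 in beta and 7.26 in wild-type ductal cells) and Ube3c near Il6 (5.64 and 7.25), and the lower gene was Gsc beside Serpina3n (5.77 and 4.73). Saal1, which lies next to Saa3, read 6.00 in all 3 arrays. Between the ductal arrays 0 of the 18 were 2-fold apart, where 3.25% of all genes compared were.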

How the data were processed

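RNA (18 ng) from sorted pools was amplified with NuGEN kits and hybridised to 1 array per group, per the labels' protocols. The deposited values are log2 intensities per probe set, made by the authors with RMA per the submitters' processing notes; the RMA version and the set of arrays normalized jointly are not stated there. Of 35556 probe sets, 21789 listed 1 gene, 1621 several and 12146 none in the platform annotation; 21698 matched RefSeq by gene ID, leaving 19938 genes, each read from its probe set with the highest mean. The other probe sets were left out.

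Levels were compared by difference, with no test. A value tied between arrays had to pass the higher of the 2 floors. Lists were described by counts and medians beside all genes compared. The members and lists were chosen with earlier results of these data known. Named list genes are the 2 highest and 2 lowest differences between the ductal arrays, as far as ties and space allow, the highest difference from beta cells, family relatives, and genes marked as named for a role or after their values were seen. The alternatives tried were quantile normalization, centring on each array's median, removal of a loess trend (span 0.3), a 1.5-fold or 4-fold threshold, omission of the floor, its rise to the 75th percentile, levels raised to it, and averaging of probe sets per gene. Ranks and nearest genes with levels raised to the floor were added after seeing the data. The comparison steps were tested on simulated data, made from the wild-type ductal levels with added noise and shifts planted in genes well above the floor. That simulation did not cover values tied between arrays or shifts in genes near or below the floor. Software was pandas 2.3.3 and numpy 2.4.6 under Python 3.11.15, statsmodels 0.14.6 for loess, and matplotlib 3.10.9.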

Additional observations from a re-analysis of the deposited data

How the results depend on the processing

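The count of members at least 2-fold apart between deleted and wild-type ductal cells, 1 as deposited, was 3 at a 1.5-fold threshold and 0 at a 4-fold threshold, after quantile normalization and with the loess trend removed. Of all genes compared, 3.25% were that far apart as deposited, 10.1% at 1.5-fold, 0.558% at 4-fold, 2.32% after quantile normalization and 3.06% with the loess trend removed. The counts against beta cells stayed within 1.5 times their main values, and all 3 medians kept their sign and their side of 2-fold, under every alternative run. Of 120 values for single members under alternatives, 110 kept their direction and side of 2-fold; Socs3 and Hp fell short of 2-fold in 4 and Socs3 passed it against beta cells in 2 (1.06 with centring and 1.24 with the mean of probe sets). The other 4 were values near 0 of Il6 and Lcn2 between the ductal arrays. No paired analysis was possible because each group has 1 array. Depth has no counterpart here; levels below the floor limit the folds of Saa3, Serpina3n, Hp, Cp and Il6 to lower bounds.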
